A study of Mus musculus with 9 samples.

Results

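Genes that write, read, erase or reorganise chromatin marks were examined in hair follicle stem cells of mice of 3 ages. The members are 39 genes chosen by symbol from the 37980 rows of the deposited expression table, and every symbol was found once. They comprise architectural high mobility group proteins, DNA methylation and oxidation enzymes, the Polycomb repressive complexes, histone methyltransferases and demethylases, deacetylases, nucleosome remodellers and acetyltransferases. All mice were C57BL/6J males, with no genetic change or treatment named, and the ages compared were 3, 19 and 24 months with 3 libraries each. Cells were collected by flow cytometry from back and belly skin as CD34+ cells with high CD49f, the surface phenotype of the follicle bulge. No label ties a library to an animal or a pool of animals, so every p-value measures a spread between libraries that may be purely technical. Running numbers of the 3-month libraries stand apart from the consecutive numbers of the older ones, and a difference in handling between 3 months and the older ages cannot be told apart from age.

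Stem cells of the bulge divide rarely and keep their genes of other lineages silent through marks on DNA and histones. Dnmt1 copies CpG methylation onto the new strand after replication, with the help of the remodeller Hells, while Dnmt3a and Dnmt3b add new methyl groups and the Tet enzymes oxidise them. Polycomb repressive complex 2 methylates lysine 27 of histone H3, complex 1 ubiquitinates histone H2A, and Kdm6b removes the lysine 27 mark.

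Levels are in FPKM, fragment counts scaled by transcript length and library size, which can therefore be set side by side between genes. Changes are differences in log2(FPKM + 1) with the standard error (SE) from limma, fitted to 11509 protein-coding genes in 9 libraries, and a gene was called at a Benjamini-Hochberg adjusted p under 0.05. The added 1 understates changes of low genes. Of the 39 members 38 entered the fit; Hmga2 was too low. Sequencing depth is unknown. The markers Cd34 (403 to 632 FPKM), Itga6, which encodes CD49f (72.7 to 117 FPKM), and Krt14 (3235 to 6619 FPKM) were abundant in every library. Values of 0 were listed for the keratins Krt15 (every library) and Krt5 (the 19-month libraries), and such zeros in this table can be failed estimates. No member was listed at 0 in any library. In a bulk sample, fewer cells of a type and less RNA per cell cannot be told apart.

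Hmga1, Hells, Dnmt1 and Kdm6b fell between 3 and 24 months, and no member was called higher. These 4 of 38 tested members (10.5%) were lower in limma's test, where 2.34% of all 11509 genes tested were lower and 3.84% changed in either direction. The members and this fit were chosen with earlier results of these data known, so these shares are not an independent comparison. At an unadjusted p under 0.05 there were 10 members, beside 21.6% of all genes. Hmga1 and Hells also passed the F test for a change at any age, which 4.54% of all genes did. At 19 against 3 months 0 of 38 members passed (1.56% of all genes) and at 24 against 19 months 0 of 38 passed (0.930% of all genes); at an unadjusted p under 0.05 there were 4 and 1, against 15.7% and 12.8% of all genes. When every gene type was tested together, 0 members passed at 24 against 3 months (smallest adjusted p = 0.0700), against 29 rows of 14275 (0.203%).

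Across the whole list changes went both ways. The median log2 change of the members was -0.04 at 24 against 3 months, with 17 above 0 and 21 below, and the median of all tested genes was -0.0037. The 3 libraries of each age did not overlap at 24 against 3 months in 11 of 38 members, beside 22.6% of all genes. They did not overlap in 13 members at 19 against 3 months (22.5% of all genes) and in 5 at 24 against 19 months (18.4%). Genes without overlap are thus common in the whole table.

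**Figure D1:**
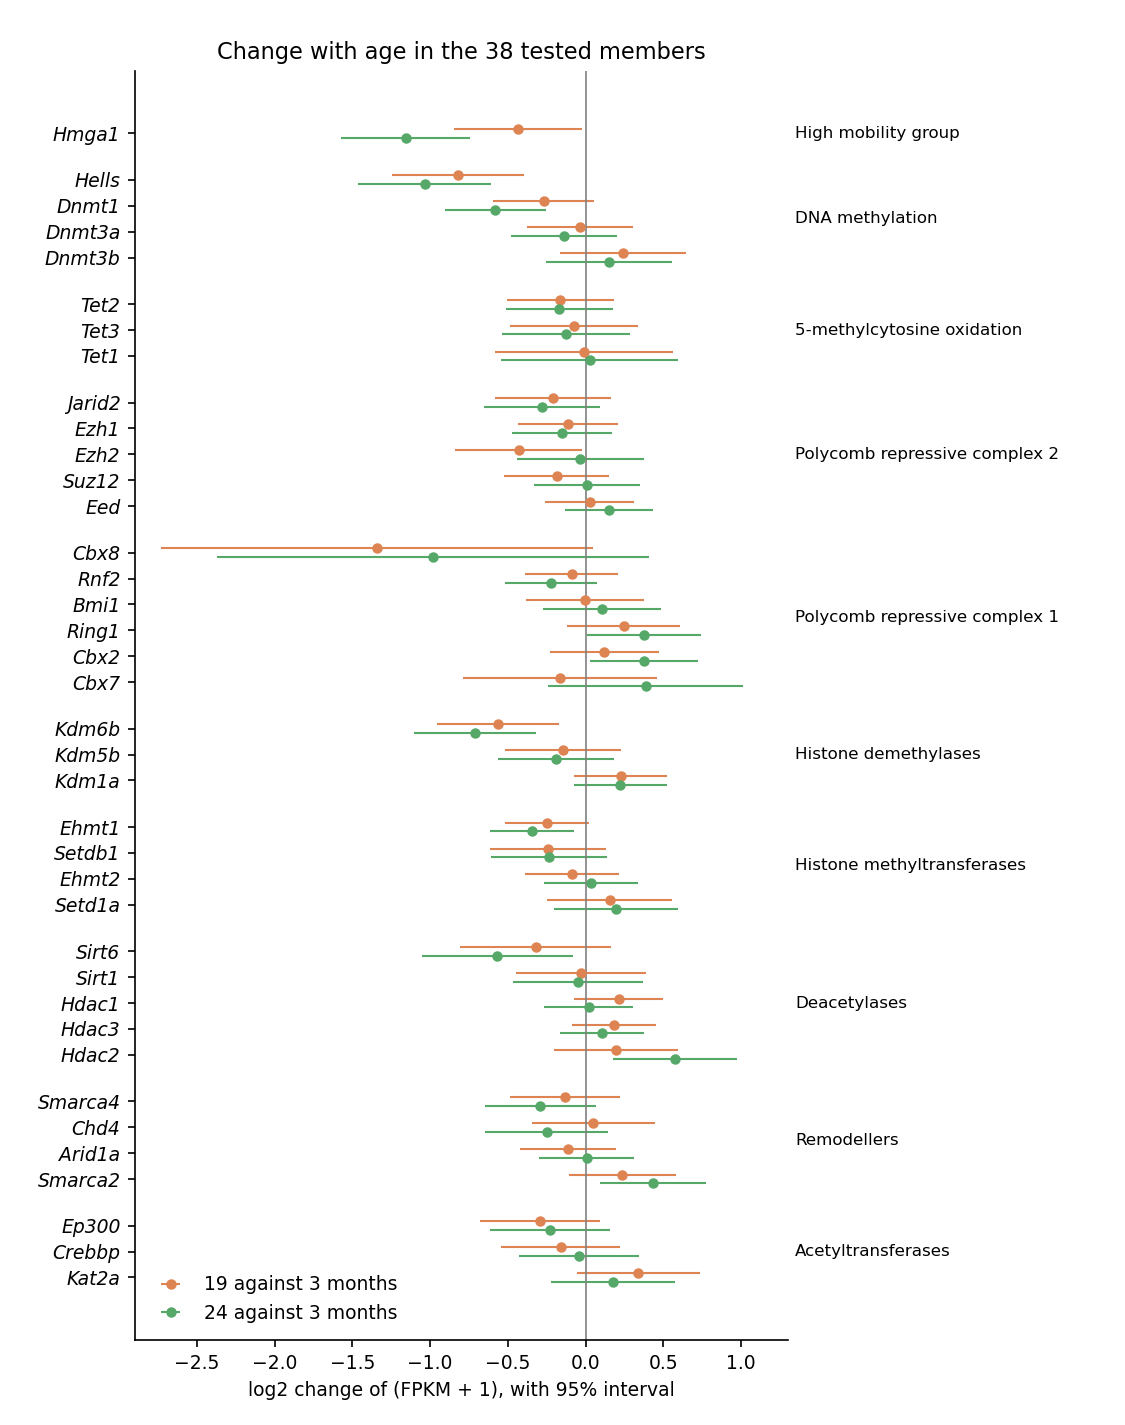
Log2 change of (FPKM + 1) at 19 against 3 months (orange) and at 24 against 3 months (green) for the 38 tested members, grouped by role; points are limma estimates and bars 95% intervals. Hmga1 at -1.16 and Hells at -1.04 have green intervals that end at -0.74 and -0.61, while most other intervals span 0.

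Upstream sequences of Hmga1 and Hells, the members whose calls were kept in most settings tried, are shown with matches to promoter elements in capitals. They are the 250 bases before the first RefSeq start on GRCm38.p6, read in the direction of transcription: chr17:27556324-27556573 on the plus strand for Hmga1 and chr19:38930740-38930989 on the plus strand for Hells. Elements searched on both strands were the E2F site (TTTCCCGC, TTTGGCGC, TTTCGCGC or TTTGCCGC), a sequence of cell cycle promoters, the CCAAT box (CCAAT) and the GC box (GGGCGG).
Hmga1: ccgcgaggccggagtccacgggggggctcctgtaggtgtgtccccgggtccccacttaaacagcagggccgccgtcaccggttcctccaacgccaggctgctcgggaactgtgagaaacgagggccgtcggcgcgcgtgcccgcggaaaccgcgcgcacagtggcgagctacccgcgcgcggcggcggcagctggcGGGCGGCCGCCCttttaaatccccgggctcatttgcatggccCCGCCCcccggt
Hells: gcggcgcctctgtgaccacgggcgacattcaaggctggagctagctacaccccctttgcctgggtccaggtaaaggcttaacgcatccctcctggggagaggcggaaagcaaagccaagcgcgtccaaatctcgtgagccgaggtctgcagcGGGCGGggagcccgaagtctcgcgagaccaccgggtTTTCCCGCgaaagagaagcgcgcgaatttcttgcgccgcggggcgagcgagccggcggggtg
Hmga1 held 3 GC boxes, 2 of them adjacent without overlap, and neither other element; CCGCCC is the GC box read on the other strand. Hells held 1 E2F site, which begins 62 bases before the start, and 1 GC box. Among 27025 upstream windows of the same length, 1.92% held an E2F site, 34.5% a CCAAT box and 33.0% a GC box. Of the 35 members with a window, 3 held an E2F site (Hells, Suz12 and Kat2a), 9 a CCAAT box and 27 a GC box. Dnmt1 has 3 listed starts spread over 7265 bases, which the data do not tell apart, and its window is not printed; Kdm6b is missing from that table. A match describes letters only and was not linked to binding.

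Hmga1 encodes a small AT-hook protein that bends DNA and opens compact chromatin. It stood at 23.2, 22.4 and 17.2 FPKM in the 3-month libraries, at 15.6, 15.6 and 14.1 FPKM at 19 months and at 12.6, 6.76 and 7.80 FPKM at 24 months. Every 3-month library was above every 19-month library, and these were above every 24-month library. Only 2 members, Hmga1 and Dnmt1, had this order, which 0.912% of all tested genes showed. The mean fell from 20.9 ± 3.22 to 9.06 ± 3.13 FPKM (SD, n = 3 each), a log2 change of -1.16 ± 0.19 (SE, limma adjusted p = 0.00581). The steps between neighbouring ages were -0.44 ± 0.19 (adjusted p = 0.294) from 3 to 19 months and -0.72 ± 0.19 (adjusted p = 0.102) from 19 to 24 months, and neither passed. The call at 24 against 3 months was kept whichever of the 9 libraries was left out (highest limma adjusted p = 0.0367, without 3-month replicate 2).

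The gene overlaps AI413582, a protein-coding gene on the other strand, in GENCODE M21, and no source used here tells whether strand entered the counting. The mean of AI413582 was 24.8 ± 5.68 FPKM at 3 months, 23.3 ± 4.27 FPKM at 19 months and 26.4 ± 5.51 FPKM at 24 months (SD, n = 3), an order unlike that of Hmga1. Hmga2, its paralog, stood at 1.36, 0.747 and 0.584 FPKM at 3 months, 0.805, 0.305 and 0.258 FPKM at 19 months and 0.237, 0.446 and 0.639 FPKM at 24 months. Its ages overlap, it reached 1 FPKM in a single library and it was not tested.

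Hells, a SNF2-family remodeller also called LSH that is needed for DNA methylation over repeats, was at its highest in the 3-month libraries, at 6.03, 6.09 and 4.05 FPKM. It stood at 2.24, 3.24 and 2.33 FPKM at 19 months and at 1.78, 1.84 and 2.69 FPKM at 24 months. All 6 older libraries lay below all 3-month libraries, and the older ages overlap. The mean at 24 months was 0.391 times that at 3 months, with a log2 change of -1.04 ± 0.20 (limma adjusted p = 0.0118). At 19 months the change was -0.82 ± 0.20 and fell short of the threshold (adjusted p = 0.0528; 0.0344 without 3-month replicate 3). The call at 24 months was lost without 3-month replicate 2 (adjusted p = 0.0627) and kept in the other 8 such fits.

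Dnmt1, the maintenance methyltransferase, stood at 13.4, 16.9 and 13.1 FPKM at 3 months, at 13.0, 11.8 and 10.6 FPKM at 19 months and at 9.91, 8.96 and 8.99 FPKM at 24 months. The 3 ages do not overlap, although the lowest 3-month and the highest 19-month library nearly touch. From 14.5 ± 2.10 FPKM at 3 months the mean fell to 9.29 ± 0.542 FPKM at 24 months (SD, n = 3 each; log2 change -0.58 ± 0.15, limma adjusted p = 0.0471). This call sits at the threshold: leaving out any 1 of the 9 libraries ended it (adjusted p from 0.0530 without 19-month replicate 1 to 0.158 without 3-month replicate 2), with log2 changes that stayed between -0.64 and -0.47.

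The de novo enzymes were not called at any comparison. Dnmt3a stood at 7.26, 7.21 and 9.35 FPKM at 3 months, 7.25, 7.67 and 8.13 FPKM at 19 months and 7.75, 7.37 and 6.20 FPKM at 24 months. Dnmt3b was lower, at 1.22, 0.972 and 1.19 FPKM, then 1.89, 1.46 and 1.22 FPKM, then 1.23, 1.84 and 1.08 FPKM. The ages overlap in both genes. The 95% intervals of the log2 change at 24 against 3 months ran from -0.48 to 0.21 for Dnmt3a and from -0.25 to 0.56 for Dnmt3b. The ratio of Dnmt1 to Dnmt3a levels lay between 1.22 and 2.34 in the 9 libraries.

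**Figure D2:**
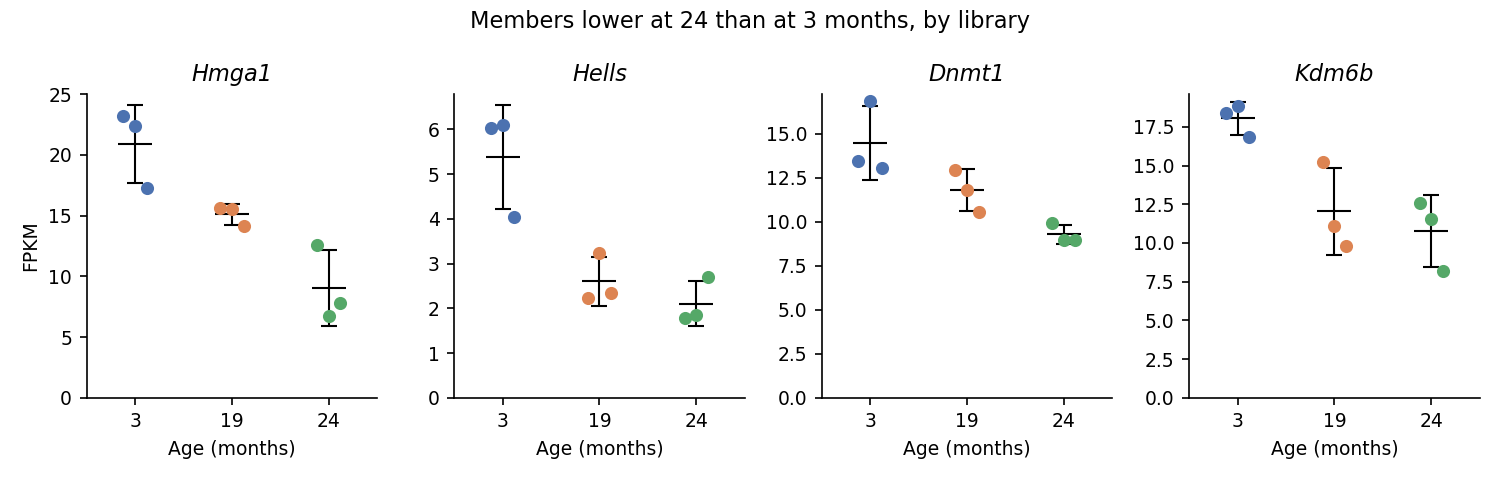
FPKM by age in months for the 4 members called lower at 24 against 3 months; coloured points are libraries, and black bars are the mean and SD of 3 libraries. Hmga1 and Dnmt1 descend in 2 steps without overlap, and in Hells and Kdm6b the 19- and 24-month libraries overlap below those of 3 months.

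The Tet genes, whose enzymes oxidise 5-methylcytosine, showed no called change, and 0 of 3 had an unadjusted p under 0.05 at any comparison in limma. Tet1 stood at 1.61, 1.54 and 1.82 FPKM at 3 months, 1.78, 2.65 and 0.808 FPKM at 19 months and 1.16, 3.02 and 1.28 FPKM at 24 months. Its older libraries spread on both sides of the 3-month ones. Tet2 stood at 6.54, 6.05 and 6.26 FPKM, then 5.58, 5.02 and 5.95 FPKM, then 5.83, 6.19 and 4.53 FPKM. Tet3 stood at 7.28, 5.95 and 9.63 FPKM, then 8.19, 6.81 and 6.29 FPKM, then 7.74, 7.53 and 5.30 FPKM. For Tet2 all 19-month libraries lay below those of 3 months, and the other Tet comparisons overlap. At 24 against 3 months the 95% intervals were -0.55 to 0.60 for Tet1, -0.51 to 0.18 for Tet2 and -0.54 to 0.29 for Tet3.

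In Polycomb repressive complex 2 the highest level was that of Ezh1, the methyltransferase subunit typical of cells that do not divide. It was 59.1, 53.6 and 50.2 FPKM at 3 months, 53.7, 51.9 and 44.9 FPKM at 19 months and 42.2, 60.7 and 45.0 FPKM at 24 months, with overlapping ages. Ezh2, the subunit typical of dividing cells, stood at 10.5, 9.58 and 9.03 FPKM, then 6.37, 7.92 and 6.57 FPKM, then 6.63, 10.3 and 12.1 FPKM. Its 19-month libraries were all below those of 3 months, while the 24-month libraries spread from the lower to the higher range. Ezh2 was not called (19 against 3 months: log2 change -0.43 ± 0.19, limma adjusted p = 0.293; 24 against 19 months: 0.39 ± 0.19, adjusted p = 0.413). Its change at 19 against 3 months had an unadjusted p under 0.05, beside 15.7% of all genes. Ezh1 exceeded Ezh2 in every library, by 3.72 to 8.43 times. The scaffold subunit genes Eed (20.1 to 26.3 FPKM) and Suz12 (8.31 to 12.1 FPKM) overlapped between ages. Jarid2, an accessory subunit that guides the complex to its targets, fell short of the test with all 24-month libraries (3.74 to 5.39 FPKM) below all 3-month ones (5.47 to 6.64 FPKM; log2 change -0.28 ± 0.18, adjusted p = 0.381).

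In Polycomb repressive complex 1, 0 of 6 genes were called by limma at any comparison. At an unadjusted p under 0.05 there were 2, Cbx2 and Ring1, at 24 against 3 months, beside 21.6% of all genes. Cbx2, a chromodomain subunit that compacts chromatin, stood at 2.91, 2.89 and 3.08 FPKM at 3 months, 3.17, 3.74 and 3.04 FPKM at 19 months and 4.22, 3.68 and 4.58 FPKM at 24 months. Ring1, an E3 ligase subunit for H2A, stood at 1.91, 1.84 and 1.90 FPKM, then 2.99, 2.03 and 2.30 FPKM, then 2.87, 2.58 and 2.77 FPKM. In both genes all 24-month libraries lay above all 3-month ones. Their log2 changes at 24 against 3 months were 0.38 ± 0.16 for Cbx2 (adjusted p = 0.199) and 0.38 ± 0.17 for Ring1 (adjusted p = 0.223). Rnf2, the second ligase, was far higher than Ring1 at 19.9 to 30.5 FPKM. Bmi1, the partner that activates the ligase, stood at 5.72, 5.80 and 6.62 FPKM, then 5.72, 6.31 and 6.08 FPKM, then 4.87, 7.93 and 7.27 FPKM, with a 95% interval of the log2 change at 24 against 3 months from -0.27 to 0.48.

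Cbx7 and Cbx8, further chromodomain subunits, varied most between libraries of one age. Cbx8 stood at 1.45, 1.28 and 27.1 FPKM at 3 months, at 0.986, 1.46 and 0.977 FPKM at 19 months and at 2.94, 0.998 and 1.59 FPKM at 24 months. A single library, 3-month replicate 3, was far above the other 8. With it the log2 change at 24 against 3 months was -0.98 ± 0.65 (limma adjusted p = 0.407), and without it 0.21 ± 0.26 (adjusted p = 0.697). Cbx7 stood at 8.75, 4.16 and 15.1 FPKM at 3 months, 7.21, 7.60 and 7.20 FPKM at 19 months and 9.25, 10.8 and 13.996 FPKM at 24 months. The 24-month libraries lay above all 19-month ones, and the 3-month libraries spanned both ages. Cbx7 overlaps Apobec3 in the annotation, which makes its level uncertain in the same way as for Hmga1. Its log2 change at 24 against 3 months was 0.39 ± 0.29, and -0.04 without 3-month replicate 2. The SD within an age, on the log2 scale, ran from 0.079 (Ehmt1) to 1.23 (Cbx8) over the tested members, with a median of 0.193 beside 0.207 for all tested genes.

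Among histone demethylase genes 1 of 3 was called. Kdm6b, which encodes the H3 lysine 27 demethylase also called JMJD3, stood at 18.4, 18.9 and 16.8 FPKM at 3 months, 15.2, 11.1 and 9.79 FPKM at 19 months and 12.6, 11.6 and 8.16 FPKM at 24 months. All older libraries were below all 3-month ones. The mean fell from 18.04 ± 1.07 to 10.8 ± 2.32 FPKM between 3 and 24 months (SD, n = 3 each; log2 change -0.71 ± 0.18, limma adjusted p = 0.0443), and the change at 19 months was -0.57 ± 0.18 (adjusted p = 0.143). The call was lost without 3-month replicates 1, 2 or 3 (adjusted p = 0.0899, 0.131 and 0.0741), 19-month replicate 2 (0.0585) or 24-month replicates 3 or 4 (0.0569 and 0.194), and with quantile normalisation (0.0635). Kdm6b overlaps the antisense gene Kdm6bos, so reads of the pair may be mixed if strand was not used. Kdm1a, a demethylase of H3 lysine 4 also called LSD1, stood at 12.3, 12.3 and 12.7 FPKM at 3 months, 13.9, 16.7 and 13.6 FPKM at 19 months and 13.8, 15.8 and 14.5 FPKM at 24 months. Its 6 older libraries lay above all 3-month ones, but neither comparison with 3 months passed (log2 changes 0.23 ± 0.14 and 0.22 ± 0.14, adjusted p = 0.462 and 0.380). Kdm5b, another H3 lysine 4 demethylase, overlapped between ages at 5.99 to 9.72 FPKM.

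None of the 4 histone methyltransferase genes was called in limma. At 24 against 3 months 1 of them, Ehmt1, had an unadjusted p under 0.05, beside 21.6% of all genes. Ehmt1, which pairs with Ehmt2 in the H3 lysine 9 methyltransferase GLP-G9a, stood at 30.0, 29.9 and 34.0 FPKM at 3 months, 27.8, 26.4 and 24.4 FPKM at 19 months and 24.6, 24.0 and 24.6 FPKM at 24 months. The older libraries were all below those of 3 months. Its log2 changes were -0.25 ± 0.13 at 19 months (adjusted p = 0.360) and -0.34 ± 0.13 at 24 months (adjusted p = 0.135). Ehmt2 overlapped between ages at 16.8 to 21.4 FPKM, with a 95% interval at 24 against 3 months from -0.26 to 0.34. Setdb1, the H3 lysine 9 enzyme of retroelement silencing, lay between 6.60 and 11.01 FPKM, and Setd1a, an H3 lysine 4 enzyme, between 3.08 and 5.54 FPKM. For Setdb1 all 19-month libraries lay below those of 3 months (log2 change -0.24 ± 0.18, adjusted p = 0.540).

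Histone deacetylase and sirtuin genes gave 0 of 5 calls in limma. At 24 against 3 months 2 of them, Hdac2 and Sirt6, had an unadjusted p under 0.05, beside 21.6% of all genes. Hdac2 stood at 16.7, 22.002 and 21.5 FPKM at 3 months, 16.8, 27.2 and 26.5 FPKM at 19 months and 25.7, 30.6 and 35.2 FPKM at 24 months. The 24-month libraries were all above those of 3 months, with a log2 change of 0.58 ± 0.19 (adjusted p = 0.0950). Its partner in the same complexes, Hdac1, stood higher at 42.8 to 60.9 FPKM, with a change of 0.02 ± 0.13 (adjusted p = 0.945). The Hdac1 to Hdac2 ratio was 2.84, 2.58 and 1.997 at 3 months and 2.03, 1.61 and 1.34 at 24 months, and the 2 ages overlap. Sirt6, a chromatin deacetylase studied in ageing and DNA repair, stood at 32.5, 19.1 and 18.03 FPKM, then 23.8, 17.1 and 13.6 FPKM, then 15.1, 17.6 and 12.2 FPKM. The 24-month libraries lay below those of 3 months, where replicate 1 was well above the others (log2 change -0.57 ± 0.23, adjusted p = 0.165). Hdac3 (41.7 to 54.0 FPKM) and Sirt1 (5.13 to 9.07 FPKM) were not called. All 19-month libraries of Hdac3 lay above those of 3 months (log2 change 0.18 ± 0.13, adjusted p = 0.522). For Hdac1 all 24-month libraries lay below those of 19 months (-0.19 ± 0.13, adjusted p = 0.612).

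Smarca2, an ATPase of the BAF remodelling complex, was the most abundant member. It stood at 137, 149 and 206 FPKM at 3 months, 189, 186 and 195 FPKM at 19 months and 183, 244 and 234 FPKM at 24 months. The 3-month libraries overlap the older ages through replicate 3, and the 2 older ages overlap through 24-month replicate 2. The log2 change of Smarca2 at 24 against 3 months was 0.44 ± 0.16 (limma adjusted p = 0.135). Its unadjusted p was under 0.05, beside 21.6% of all genes. Smarca4, the alternative ATPase, stood at 5.89 to 9.42 FPKM with a change of -0.29 ± 0.17 (adjusted p = 0.331). The ratio of Smarca2 to Smarca4 was 20.1, 17.1 and 21.8 at 3 months, 25.1, 24.1 and 27.8 at 19 months and 23.6, 41.4 and 38.1 at 24 months. All older libraries had a higher ratio than all 3-month ones; this ratio was picked after the values had been seen and was not tested. Chd4, the ATPase of the NuRD complex, lay at 15.2 to 27.0 FPKM, and Arid1a, a BAF subunit, at 16.9 to 23.2 FPKM, both with overlapping ages.

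The acetyltransferase genes Ep300, Crebbp and Kat2a were not called by limma at any comparison, and 0 of 3 had an unadjusted p under 0.05. Ep300 stood at 1.55 to 2.89 FPKM and its close paralog Crebbp at 13.0 to 23.6 FPKM. All 19-month libraries of Ep300 lay below those of 3 months (log2 change -0.29 ± 0.18, adjusted p = 0.459). They also lay below those of 24 months (24 against 19 months: 0.06 ± 0.18, adjusted p = 0.929). For Crebbp the 95% interval of the log2 change at 24 against 3 months was -0.43 to 0.35. Kat2a, the catalytic subunit of the SAGA complex, ranged from 4.86 to 8.81 FPKM, and all 3-month libraries were below all 19-month ones (log2 change 0.34 ± 0.19, adjusted p = 0.396). The library 3-month replicate 3 held the highest value of 15 of the 39 members, the largest number for any library, Ep300 and Crebbp among them.

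**Figure D3:**
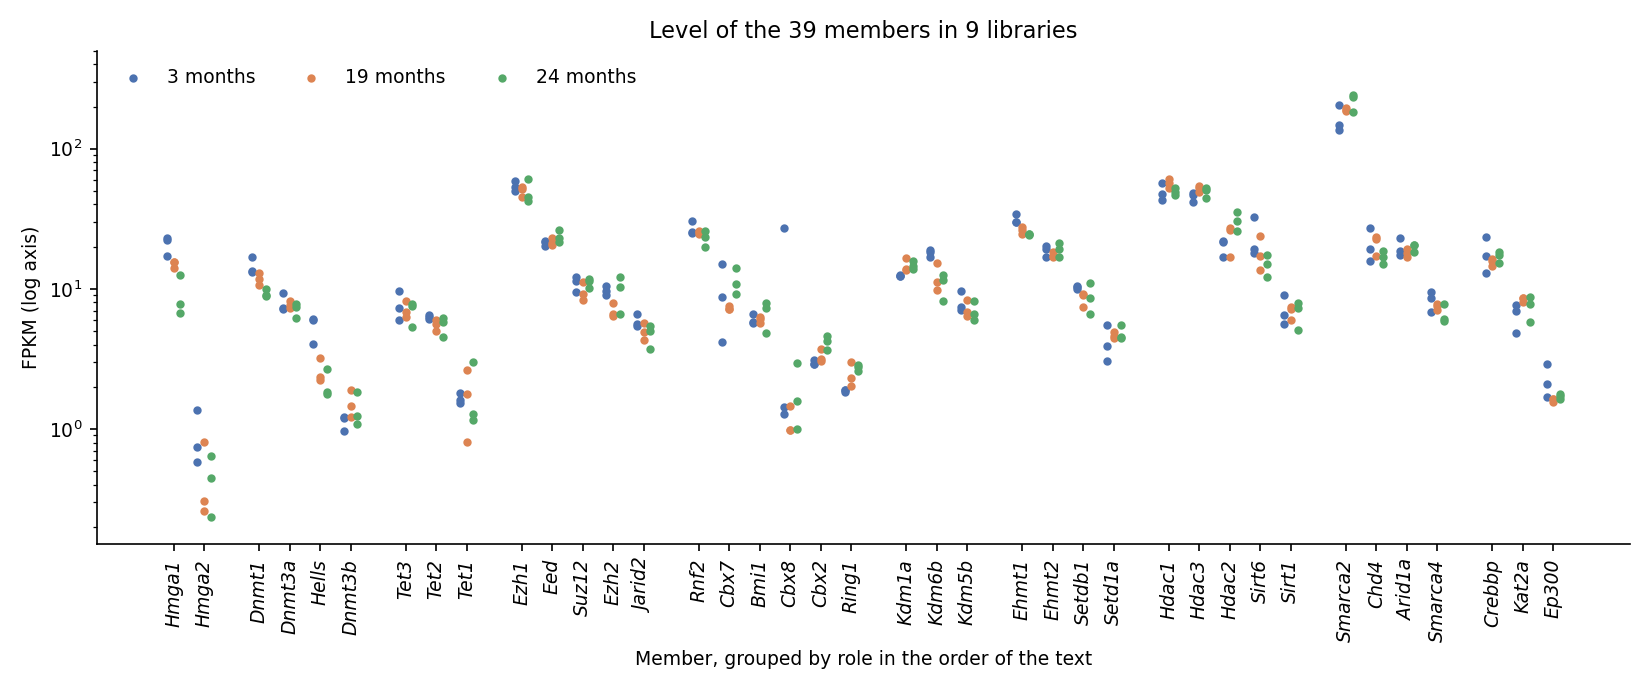
FPKM on a log axis for the 39 members in the 9 libraries, coloured by age and grouped by role. Smarca2 stands highest at 137 to 244 FPKM, Hmga2 lowest at 0.237 to 1.36 FPKM, and Cbx8 shows the single 3-month library at 27.1 FPKM.

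A wider list of 130 chromatin genes outside the members, of which 124 were tested, gave 1 call in each comparison. Over all tested genes 1.56% were called at 19 against 3 months, 3.84% at 24 against 3 months and 0.930% at 24 against 19 months. Smarcd2, a BAF subunit, fell from 107, 74.9 and 76.1 FPKM at 3 months to 37.6, 35.8 and 32.9 FPKM at 19 months and stood at 54.5, 63.3 and 73.7 FPKM at 24 months. The 19-month libraries were the lowest in every case, and the 24-month ones lay between the other ages. The log2 change was -1.24 ± 0.16 at 19 against 3 months (limma adjusted p = 0.00116), a call kept without any 1 of the 9 libraries and with every gene type tested together (adjusted p = 0.0370). It rose by a log2 of 0.82 ± 0.16 from 19 to 24 months (adjusted p = 0.0297), a call lost without 19-month replicate 2 or 3 (adjusted p = 0.111 and 0.122) or 24-month replicate 3 or 4 (0.0757 and 0.160), and with every gene type tested together (0.209). Brd2, a bromodomain reader of acetylated histones, rose from 86.2 ± 10.1 to 121 ± 3.97 FPKM between 3 and 24 months (SD, n = 3 each; log2 change 0.48 ± 0.13, adjusted p = 0.0460), and leaving out any 1 library ended that call (0.0530 to 0.148, the highest without 24-month replicate 4). The median log2 change of the list at 24 against 3 months was -0.04.

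Uhrf1, which brings Dnmt1 to newly replicated DNA, was looked up in that list for its tie to Dnmt1, after its values had been seen. It stood at 15.97, 14.7 and 10.5 FPKM at 3 months, 9.83, 13.2 and 9.44 FPKM at 19 months and 10.2, 7.71 and 10.2 FPKM at 24 months. All 24-month libraries lay below those of 3 months, and the log2 change of -0.50 ± 0.19 was not called (limma adjusted p = 0.143). In that list 17 of 124 tested genes had all 24-month libraries below those of 3 months, beside 1384 of all 11509.

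A mixed list of DNA replication and cell division genes gave 0 of 21 calls in limma at 24 against 3 months, beside 3.84% of all genes. It holds mitotic genes such as Ccnb1, Cdk1, Aurkb and Birc5 beside replication factors. At an unadjusted p under 0.05 there were 2 of 21, beside 21.6% of all genes. The median log2 change of the 21 genes was -0.17, with 15 below 0 and 6 above. The 6 genes of the replicative helicase, Mcm2 to Mcm7, all had changes below 0, from -0.55 (Mcm2) to -0.16 (Mcm7), and Rrm1, a ribonucleotide reductase subunit, had -0.30. Pcna, the replication clamp, had a change of 0.40, Cdk1 of 0.18 and Birc5 of 0.12. These genes were picked after their values had been seen, and none was called. The summed level of the 22 listed genes was 351 to 503 FPKM at 3 months and 404 to 464 FPKM at 24 months, so the ages overlap. Their part in the falls of Hells and Dnmt1 was not tested.

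**Figure D4:**
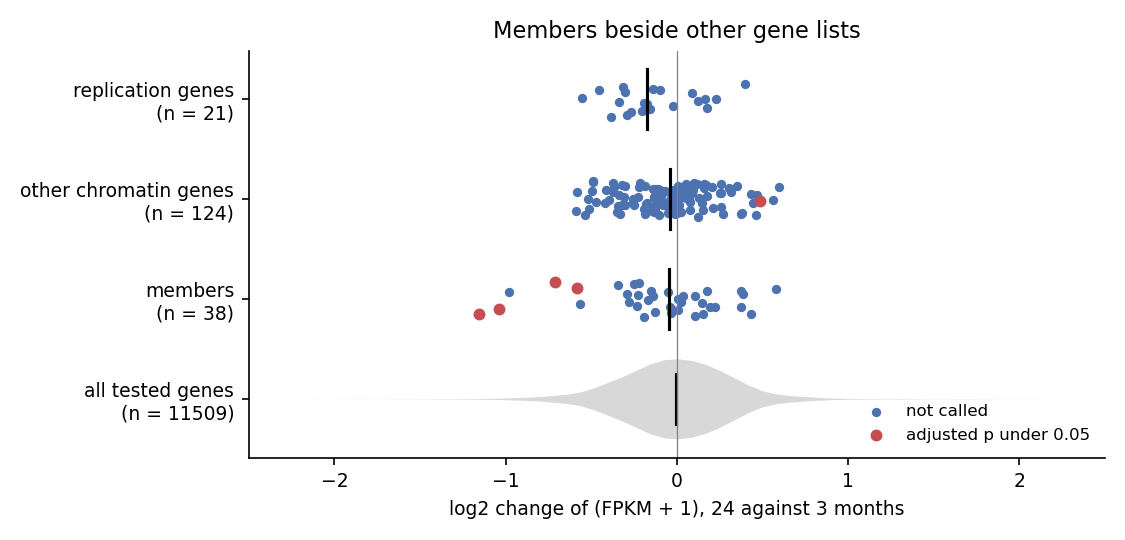
Log2 change of (FPKM + 1) at 24 against 3 months for all 11509 tested genes (grey violin, 3 genes beyond the axis not drawn), the 38 tested members, 124 other chromatin genes and 21 replication and cell division genes; black lines are medians and red points have an adjusted p under 0.05. The 4 red members lie at -1.16 to -0.58, and the medians of the members and of all genes nearly coincide.

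Transcripts marking cells other than the sorted population also differed between ages. Of 10 tested genes listed as follicle stem cell markers, 2 were called lower at 24 against 3 months and 0 higher. The 2 were Lgr5 (52.2 to 135 FPKM) and Lgr6 (2.06 to 7.22 FPKM). At 19 against 3 months 2 of the 10, Sox9 and Nfatc1, were called higher (limma adjusted p = 0.0348 and 0.0264) and 0 lower. The list thus holds changes in both directions. Over all tested genes 2.34% were called lower and 3.84% in either direction at 24 against 3 months. At 19 against 3 months 1.56% were called in either direction. Of 7 sebocyte genes 6 were called lower and 1, Mgst1, higher at 24 against 3 months. At 19 against 3 months 5 of the 7 were called lower and 0 higher. The sum of the list, most of it Mgst1, was 262 to 338 FPKM at 3 months and 353 to 463 FPKM at 24 months. The sum of 7 melanocyte genes went from 37.7 to 46.2 FPKM at 3 months to 29.1 to 34.7 FPKM at 24 months, with 1 called lower. Most of that sum was Mitf (20.3 to 31.8 FPKM), which was not called, and the gene called was Tyrp1 (0.162 to 3.57 FPKM). The sum of 6 endothelial genes went from 12.3 to 14.7 FPKM at 3 months to 6.09 to 8.03 FPKM at 24 months, with 2 called lower. Those 2 were Egfl7 (1.82 to 5.62 FPKM) and Ramp2 (3.68 to 8.47 FPKM), while the highest values of the other 4 were 0.0722 FPKM for Cdh5, 0.0912 FPKM for Kdr, 0.446 FPKM for Pecam1 and 0.789 FPKM for Tie1. The sum of the 11 immune cell genes found in the table overlapped between those ages (44.8 to 88.2 FPKM and 50.3 to 84.8 FPKM). Its largest part was Cd74 (17.6 to 53.7 FPKM). One of the 7 tested, Fcer1g (1.07 to 7.40 FPKM), was called lower at 19 against 3 months (log2 change -0.90, limma adjusted p = 0.0373). It was called higher at 24 against 19 months (1.45, adjusted p = 0.00403), beside 0.930% of all genes called there, and not at 24 against 3 months. The sum of 7 genes of differentiated epidermis, most of it Krtdap, overlapped between 3 and 24 months as well (1991 to 2942 FPKM and 2236 to 3954 FPKM). For 7 fibroblast genes it was 6.10 to 8.75 FPKM and 9.42 to 16.8 FPKM, most of it Col1a2, with 0 of 2 tested genes called by limma. The log2 changes of those 2 at 24 against 3 months were 0.56 (Col1a2) and -0.19 (Col1a1). The part of these cells in the falls of Hmga1, Hells, Dnmt1 and Kdm6b was not tested.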

How the data were processed

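RNA of 9 libraries was analysed from 1 deposited table of FPKM values, which the authors made with TopHat and Cuffdiff on genome build NCBIM37, per the submitters' processing notes; versions and annotation: not given in the sources used here. Low FPKM values gave no sharp step for 1 read, so depth is unknown and no counting interval can be given. Groups came from the sample titles. Gene types came from GENCODE M21 by Ensembl identifier (32916 of 37980 rows matched). Its build differs from that of the table. Names and types were used for matching and the fits, and positions only to name the genes that overlap Hmga1, Cbx7 and Kdm6b.

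Rows were kept if protein-coding, at 1 FPKM or more in 3 or more libraries, and not among 36 rows with every library of an age at 0 and every library of another at 5 FPKM or more. log2(FPKM + 1) was fitted with 1 mean per age in limma (3.58.1, under R 4.3.3), whose prior variance followed the mean level. Tests were two-sided, and the code was checked on simulated data. This fit calls more genes than one of all gene types and was chosen with that known, because other gene types vary more between libraries. The members, lists and tests were chosen with earlier results of these data known. Values per library are given for called members, for those with the smallest F test p up to 14, and for 12 chosen whatever their values. Among other chromatin genes, called ones and Uhrf1 are named. Upstream sequences came from RefSeq on GRCm38.p6.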

Additional observations from a re-analysis of the deposited data

How the results depend on the processing

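Over 114 log2 changes of members (38 genes, 3 comparisons) and 2142 values under other settings, 2101 kept their side of the threshold and their direction, with values within 1 SE of 0 and not called counted as having no direction. Another 33 lost a call and 5 gained one. Only 4 of the 114 changes were called in the main fit, so most values had no call to lose, and all 33 losses fell on these 4. Dnmt1 lost its call in 9 of 9 fits without 1 library and in 6 of 10 other settings, and Kdm6b in 6 of 9 and 5 of 10. Hells lost it in 1 of 9 and 3 of 9, and Hmga1 in 0 of 9 and 3 of 10. The sign turned in 3: Cbx7 at 24 against 3 months (-0.041 without 3-month replicate 2; -0.041 to 0.78 over the libraries left out), Cbx8 at 24 against 3 months (0.21 without 3-month replicate 3; -1.60 to 0.21) and Sirt6 (0.12 at 24 against 19 months with the replicate block). None of these was called.

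The 4 members called at 24 against 3 months became 0 with no filter on low values (Hmga1 adjusted p = 0.0507), 0 with all gene types tested whether rows listed at 0 were kept or left out, 2 with quantile normalisation and 2 with the replicate block (Hmga1 and Hells in both). Calls by the F test went from 2 to 0 under the first 3 of these and to 1 with a minimum of 5 FPKM, where Hells was not tested. At 19 against 3 months 1 member, Hells, was called with a robust prior, with upper-quartile scaling and with the replicate block. Other chromatin genes called at 24 against 3 months went from 1 to 0 with no filter, with all gene types, with the replicate block and with only the 2 ages compared; with quantile normalisation it stayed at 1, but the gene was Phf1 and Brd2 was lost (adjusted p = 0.0695); at 24 against 19 months from 1 to 0 with no filter and with all gene types; and in the F test from 1 to 0 with all gene types.

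Over all genes, 180, 442, 107 and 523 calls (19 against 3, 24 against 3 and 24 against 19 months, and the F test) became 53, 118, 0 and 59 with no filter. They became 40, 29, 7 and 32 with all gene types, and 27, 0, 0 and 0 when rows listed at 0 were then left out. Quantile normalisation gave 59 at 24 against 19 months. The cause of these differences was not tested.

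Leaving out each library in turn gave 46 to 231, 133 to 457, 20 to 214 and 181 to 544 calls over all genes, 0 to 1, 1 to 3, 0 to 1 and 1 to 3 among members, and 1 to 1, 0 to 1, 0 to 2 and 1 to 2 among other chromatin genes. The 1 member called at 24 against 19 months was Hmga1, without 24-month replicate 2 (adjusted p = 0.0136). At 24 against 3 months calls over all genes moved most without 24-month replicate 4 (133) and 3-month replicates 2 (142) and 3 (281), and the member count was lowest without 3-month replicate 2 (1, Hmga1).

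Ages share some replicate numbers: libraries of 3 and 19 months are numbered 1, 2 and 3, and those of 24 months 2, 3 and 4. Libraries with the same number deviated together in 3 of 7 pairs (correlation over 0.1, range -0.20 to 0.19), and the 20 other pairs ranged from -0.23 to 0.16. Deviations from the mean of 3 libraries sum to 0 within an age, so this check cannot decide whether the numbers are pairs. The main fit did not treat them as pairs, and a fit with the replicate block is given beside it. With the replicate block 253, 158, 110 and 352 genes were called (19 against 3, 24 against 3, 24 against 19 months and F test), and 1, 2, 0 and 2 members. Number 4 belongs to a single library, so the block takes 24-month replicate 4 out of every comparison between ages. The change of Kdm6b at 24 against 3 months went from -0.71 to -0.45 with the block (limma adjusted p = 0.239). It was -0.54 when only that library was left out (adjusted p = 0.194). In comparisons with 24 months, pairing and the loss of that library cannot be told apart. Unknown depth limits what can be said of low members such as Hmga2, Dnmt3b and Tet1.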
